A study of Homo sapiens with 10 samples.

Results

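The replication-dependent histone genes were taken as every gene symbol in the deposited expression tables that begins with HIST1H, HIST2H, HIST3H or HIST4H. This rule found 71 of the 20535 listed genes, and it used names only, not expression. The genes were measured by RNA-seq in K562, a human erythroleukemia cell line, in 10 libraries of 5 groups with 2 libraries each. Cells of 4 groups received all 4 sgRNAs against the HS2 enhancer of the β-globin locus (sgHS2) together with KRAB fused to dCas9 (K), with LSD1 fused to dCas9 (L), or with one of the dual-effector systems, in which dCas9-LSD1 recruits MCP-KRAB (enCRISPRi-LK, LK) or dCas9-KRAB recruits MCP-LSD1 (enCRISPRi-KL, KL), and the controls received the nontargeting sgGal4, whose accompanying effector the labels do not give. KRAB is a repressor domain taken from ZNF10, and LSD1, encoded by KDM1A, removes methyl groups from lysine 4 of histone H3; the effectors were doxycycline-inducible, and the cells were a sorted, transduced population and not single clones. The study calls the libraries of a group separate experiments, but neither it nor the labels say that they came from separate cultures, so every p-value measures only the spread between these samples.

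Replication-dependent histone genes make the bulk of the histone protein that packages newly copied DNA, and their mRNAs accumulate in S phase. Most of these genes lack introns and stand in clusters, the largest of which is HIST1 on chromosome 6. Their mRNAs are the known exception to polyadenylation: the 3′ end is cut a few bases after a conserved stem-loop, which is bound by the stem-loop binding protein SLBP, and no poly(A) tail is added. Some of the genes can also give a longer, polyadenylated transcript that ends downstream of the stem-loop. H2A, H2B, H3 and H4 are the core histones of the nucleosome, and H1 is the linker histone that binds the DNA between nucleosomes.

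HBE1, the embryonic β-like globin gene that HS2 controls, was at 1376 and 1619.7 TPM in sgGal4, 695 and 759 in K, 1019 and 986 in L, 557 and 458 in LK, and 384 and 361 in KL. It was lower in all 8 sgHS2 libraries than in both sgGal4 libraries. KDM1A, which encodes LSD1, was at 25.2 and 33.5 TPM in sgGal4, 29.2 and 27.7 in K, 105 and 84.2 in L, 27.4 and 30.6 in LK, and 26.8 and 26.6 in KL. ZNF10, the source of KRAB, was at 0.97 and 1.89 TPM in sgGal4, 1.18 and 3.8 in K, 128 and 136 in L, 36.8 and 31.5 in LK, and 365 and 359.9 in KL. KDM1A was thus high in L alone and ZNF10 in L, LK and KL, which is not what the effectors named in the labels would carry, so K, L, LK and KL below mean the libraries labelled so. The 13 mitochondrial genes made up 39.9% to 53.6% of the listed TPM, highest in sgGal4 replicate 1 (the other 9 libraries lay at or under 46.6%). All 12 genes of an erythroid and K562 list were above 1 TPM on average, and 4 of 6 lymphoid genes were listed at 0 in every library. CD3D, of the same lymphoid list, was at 26.1 and 33.6 TPM in sgGal4, 7.16 and 10.8 in K, 10.7 and 1.65 in L, 21.3 and 8.92 in LK, and 10.9 and 1.75 in KL, below both controls in every sgHS2 library, and its difference did not pass the test in any comparison. The TPM of the listed genes summed to 790470 in K replicate 2 and up to 844414 in sgGal4 replicate 1, and TPM gives relative levels, and neither depth nor the amount of RNA per cell is known.

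The conserved 3′ stem-loop was found in the annotated transcript of all 68 genes that could be matched to GENCODE. HIST1H2BF, HIST1H2BG and HIST1H4F were not matched. The stem-loop stands 22 to 67 bases after the stop codon, and these sequences are shown because the same signal is present in genes that were highly listed and in genes that were not. The 16 bases of the stem-loop are in capitals, with 5 bases on each side, 5′ to 3′ on the strand of the gene, and the positions are those of the stem-loop in hg19.
HIST1H2BK (chr6:27114145-27114160, minus strand): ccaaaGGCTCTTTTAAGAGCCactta
HIST1H1E (chr6:26157323-26157338, plus strand): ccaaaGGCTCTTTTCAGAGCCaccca
HIST1H4C (chr6:26104545-26104560, plus strand): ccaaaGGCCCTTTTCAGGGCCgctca
HIST1H2AK (chr6:27805663-27805678, minus strand): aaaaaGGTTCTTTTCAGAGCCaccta
HIST1H3C (chr6:26046077-26046092, plus strand): gaaaaGGCTCTTTTCAGAGCCactca
HIST1H2BI (chr6:26273620-26273635, plus strand): ccaaaGGCTCTTCTAAGAGCCaccca
HIST1H3E (chr6:26225824-26225839, plus strand): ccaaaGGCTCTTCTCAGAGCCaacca
HIST1H4L (chr6:27840931-27840946, minus strand): tcaaaGGCCCTTCTCAGGGCCaccca
The sequence shown for HIST1H1E and HIST1H3C was the most frequent, in 40 genes, of which 24 averaged 1 TPM or more. HIST1H1E averaged 1561 TPM and HIST1H3C was listed at 0 in every library, with the same 16 bases. The form of HIST1H4C was in 9 genes, all of them H4 genes, and 6 of these had a mean of at least 1 TPM. In the last 3 genes shown, the 4-base loop in the middle of the capitals reads TCTC or TCTA, and neither loop was found in the other 65 genes. All 3 were listed at 0 in every library, as were 18 of the 65 others; this feature was chosen after the values were seen and has no test.

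Expression fell into 3 classes. 39 genes had a mean of at least 1 TPM and made up 99.979% of the summed histone TPM, 10 were above 0 in at least 1 library with a mean under 1 TPM, and 22 were listed at 0 in all 10 libraries, against 29.6% of all listed genes at 0 throughout (6069 genes). Of the 39, the median of the means was 209.7 TPM and the range 8.06 to 2613 TPM. The 71 genes together made up 1.33% to 2.17% of the listed TPM per library. Between 39 and 44 of them were above 0 in a given library. In the 37 genes that were above 0 in every library and had a mean of at least 1 TPM, the highest library was 1.36 to 18.4 times the lowest, with a median of 2.00 times.

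**Figure D1:**
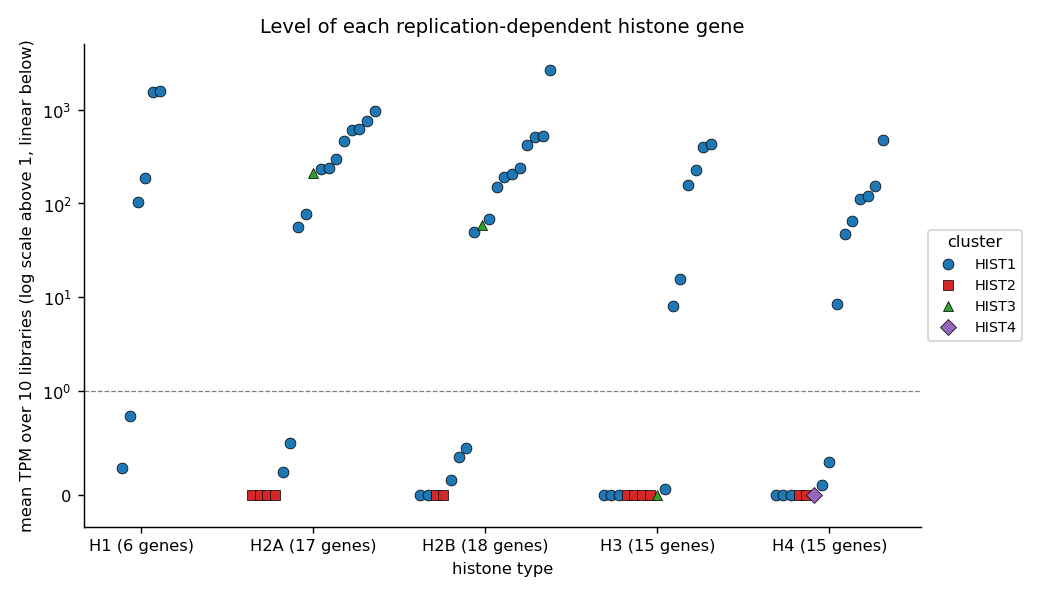
Mean TPM over the 10 libraries (log scale above 1, linear below) of each of the 71 genes by histone type, one point per gene, ordered by level within a type; colour and shape give the cluster and the dashed line marks 1 TPM. All 12 HIST2 genes and the HIST4 gene lie at 0, and H1 genes include both points next below the highest.

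The genes were far from evenly expressed within each histone type. H2B genes held 33.1% of the summed TPM, H2A genes 29.9%, H1 genes 22.4%, H3 genes 8.15% and H4 genes 6.46%. Among the genes of at least 1 TPM, the median level per length was 863 TPM for the 4 H1 genes, 299 TPM for the 11 H2A genes, 206 TPM for the 11 H2B genes, 193 TPM for the 6 H3 genes and 111 TPM for the 7 H4 genes. In a nucleosome the 4 core histones are present in equal numbers. The H3 and H4 sums were several times lower than those of H2A and H2B in every library. At 0 in every library were 8 of 15 H3 and 6 of 15 H4 genes, against 4 of 17 H2A and 4 of 18 H2B genes. These genes include HIST2 genes, whose value of 0 is not taken as absence of the transcript. The sums therefore do not give the balance of core histone mRNA, which was not tested.

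By cluster, the 55 HIST1 genes held 98.2% of the sum and 37 of them had a mean of at least 1 TPM. None of the 12 HIST2 genes was above 0 in any library. HIST3 contributed 1.78% through HIST3H2A (209.7 TPM) and HIST3H2BB (59.6 TPM), whereas HIST3H3, a testis H3 gene, and the single HIST4 gene HIST4H4 were listed at 0. Within HIST1, 29 annotated genes in chr6:26017260-26285762 held 44.9% of the summed histone TPM, 5 genes in chr6:27100095-27115341 held 26.5% and 16 genes in chr6:27775257-27861669 held 23.6%. The 5 genes of the middle segment were all above 1 TPM. At the far end of the cluster, chr6:25726291-25727573 holds HIST1H2AA and HIST1H2BA, both testis genes, whose means were 0.504 and 0.148 TPM. The testis linker histone gene HIST1H1T was also low, with a mean of 0.766 TPM and a highest library of 3.09 TPM.

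Just 3 genes held 37.6% of the summed histone TPM, and the 12 highest held 72.9%. HIST1H2BK, which encodes an H2B, was at 2078 and 2282 TPM in sgGal4, 2638 and 2451 in K, 2688 and 2624 in L, 3089 and 3195 in LK, and 2471 and 2616 in KL. Its lowest library lay above the highest library of every other member, and its mean of 2613 TPM ranked 20 among all listed genes. Reads that fall on repeated sequence bear on this value, since 38.9% of the 75-base windows of its transcript occur elsewhere in the genome and 57.2% of the 50-base windows do.

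The linker histone genes HIST1H1E and HIST1H1C followed, and neither has a repeated window of these lengths. HIST1H1E was at 1301 and 1593 TPM in sgGal4, 1469.5 and 1372 in K, 1653 and 1768 in L, 1701 and 1611 in LK, and 1512 and 1628 in KL. HIST1H1C was at 1530.4 and 1833 TPM in sgGal4, 1644 and 1487 in K, 1459.7 and 1528 in L, 1689 and 1717 in LK, and 1189 and 1319 in KL. Their means of 1561 and 1540 TPM did not separate, and their library ranges overlapped.

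HIST1H2AH was next with a mean of 977 TPM, followed by HIST1H2AM at 761, HIST1H2AE at 618 and HIST1H2AI at 603 TPM, all 4 of which encode H2A. HIST1H2BL at 518, HIST1H2BC at 509.6, HIST1H4C at 473, HIST1H2AC at 468 and HIST1H3H at 426 TPM completed the 12 highest. The library ranges of neighbours in this order overlapped from HIST1H1E downwards among these 12. HIST1H2AI had a wider range than its neighbours, 242 and 814 TPM in sgGal4, 793 and 722 in K, 521 and 680.4 in L, 593 and 497 in LK, and 639 and 531 in KL, and 61.3% of its 75-base windows are repeated. HIST1H4C and HIST1H3H, the highest H4 and H3 genes, have no repeated 75-base window.

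Of the 22 genes at 0, 12 formed the whole HIST2 set, and they did not stand alone. All 12 lay in a run of 22 consecutive genes at 0 in every library, chr1:148739443-149982675, in the gene order of the hg19 annotation. This order, and the count of runs, covers the 18056 of 20535 listed genes that had a position there. The run also holds BOLA1, SV2A, MTMR11, OTUD7B and SF3B4, a subunit of the splicing machinery that dividing cells require. Of 2410 runs of consecutive genes at 0 in the genome, 13 others were as long as this one or longer. Beyond the run, VPS45 and PLEKHO1 were at or near 0, ANP32E had a mean of 1.69 TPM and MRPS21 one of 34.7 TPM. Between ANP32E and MRPS21, CA14, APH1A and C1orf54 were at 0 in every library, as was PRPF3 just past MRPS21. The next genes, RPRD2 and TARS2, had means of 14.1 and 22.1 TPM. A value of 0 here is therefore given as listed at 0 and not as absence of the transcript.

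Repeated sequence covered part of the HIST2 set and not the rest. Reads placed at more than 1 position were discarded according to the methods of the study, and 8 of the 12 HIST2 genes had at least 50% of their 75-base windows repeated elsewhere. HIST2H2BE (4.88%), HIST2H2AB (0%), HIST2H2AC (17.9%) and HIST2H3PS2 (35.0%) did not, and were listed at 0 like the others. Over all members with a matched transcript, 12 had at least 50% of their 75-base windows repeated, and 1 of them, HIST1H2AI, had a mean of at least 1 TPM while 8 were at 0. Of the 56 others, 36 had a mean of at least 1 TPM and 13 were at 0. Of the 42 members without any repeated 75-base window, 26 had a mean of at least 1 TPM and 10 were at 0. The 8 HIST1 genes at 0 were HIST1H2BB, HIST1H2BI, HIST1H3C, HIST1H3E, HIST1H3G, HIST1H4F, HIST1H4G and HIST1H4L, and the 7 of these with a matched transcript had no repeated 75-base window.

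The labels name a poly(A) selection kit for these libraries, and the methods name a whole-transcriptome amplification kit without such a step. The values do not decide between them, since 1 preparation is given for all 10 libraries; U snRNAs, snoRNAs, RMRP, RN7SK and MALAT1, other RNAs without a poly(A) tail that were looked for by symbol, are not among the listed genes. The part of the preparation in the levels was not tested. Genes with a known long form, whose annotated transcripts reach at least 100 bases past the stem-loop, were 14 in number. They held 15.0% of the summed histone TPM, with 8 of 14 at a mean of at least 1 TPM. The 54 without an annotated long form held 81.9%, with 29 at a mean of at least 1 TPM. The 8 highest members, HIST1H2BK to HIST1H2BL, are annotated only with transcripts that end within 5 bases of the stem-loop. HIST1H2BC, HIST1H2AC and HIST1H3H are the highest with an annotated long form. Of the 14, 5 were at 0 in every library, HIST2H2BE among them. Only this annotation was searched, so the lack of an annotated long form does not show that a gene gives no polyadenylated transcript.

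Many H2A and H2B genes are arranged head to head, and 10 such pairs with at most 500 bases between the transcripts were found. Only genes with a matched transcript could be searched, so any pair that includes HIST1H2BF or HIST1H2BG is missing and the list is not complete. Both genes of 7 pairs had a mean of at least 1 TPM, and in 3 pairs both were under 1 TPM or at 0. The sequences between the transcripts of the highest pair and of a pair near 0 from the same cluster are shown to compare their promoter elements, with matches to the octamer ATTTGCAT, on either strand, in capitals, as read from hg19.
HIST1H2BK and HIST1H2AH (chr6:27114635-27114884, plus strand): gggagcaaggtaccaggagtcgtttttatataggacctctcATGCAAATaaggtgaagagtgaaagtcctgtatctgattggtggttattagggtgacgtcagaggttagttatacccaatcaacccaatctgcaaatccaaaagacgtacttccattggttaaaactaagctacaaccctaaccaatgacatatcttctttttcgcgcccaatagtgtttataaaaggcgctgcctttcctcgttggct
HIST1H2AJ and HIST1H2BM (chr6:27782556-27782799, plus strand): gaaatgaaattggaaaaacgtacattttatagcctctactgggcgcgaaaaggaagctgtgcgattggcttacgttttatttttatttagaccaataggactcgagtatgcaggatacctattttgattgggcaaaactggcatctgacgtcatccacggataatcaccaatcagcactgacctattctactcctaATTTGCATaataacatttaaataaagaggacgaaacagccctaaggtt
The interval of the highest pair is 250 bases long and that of the other 244 bases, and each holds 1 octamer, with 6 and 5 matches to CCAAT on both strands. HIST1H2AJ and HIST1H2BM had means of 0.221 and 0.46 TPM. Of the 75-base windows of HIST1H2AJ, 64.2% are repeated elsewhere in the genome, so its value near 0 is not taken as low expression. HIST1H2BM has no repeated 75-base window. The octamer stood in 4 of the 7 intervals between expressed genes and in all 3 of the others. Of these 3, the interval between HIST2H2BE and HIST2H2AC lies in the chr1 run at 0, where 0 is not taken as absence of the transcript. The ratio of HIST1H2BK to HIST1H2AH, both in TPM and so per length, was 2.24 to 3.16 over the 10 libraries. The ratio of HIST1H2AM to HIST1H2BO was 3.19 to 4.87, and that of HIST1H2BC to HIST1H2AC was 0.860 to 1.34. The partners of a pair thus differed in level by different factors, and the widest spread was in HIST3H2A over HIST3H2BB, from 2.12 to 5.71.

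RefSeq promoters of GRCh38.p14, from 250 bases before to 50 bases after the start, were found for 66 members. The octamer ATTTGCAT, on either strand, was in 39.4% of them and in 1.80% of all 27305 promoters. It was in 14 of 18 H2B and 11 of 16 H2A promoters, in 1 of 13 H3 promoters and in none of the 6 H1 or 13 H4 promoters. The H2A and H2B genes of a head-to-head pair share the bases between them, at most 250 in the pairs found. The same octamer can therefore count in both promoters of a pair. The H2A and H2B counts are thus not independent, and the same holds for the shares over all members and by level. CCAAT was in 84.8% of the members' promoters and 35.7% of all, with every H1, H2A, H2B and H3 promoter and 3 of 13 H4 promoters holding it. TATAAA was in 66.7% and 11.9%. Between the 35 promoters of members of at least 1 TPM and the 31 of the other members, the shares were 42.9% and 35.5% for the octamer, 88.6% and 80.6% for CCAAT, and 60.0% and 74.2% for TATAAA. The other members include HIST2 genes of the chr1 run at 0, so they are not a set of genes shown to be unexpressed. By type, TATAAA was in 3 of 6 H1, 12 of 16 H2A, 12 of 18 H2B, 10 of 13 H3 and 7 of 13 H4 promoters. Members at or near 0 held all 3 elements, and no difference between these shares was tested.

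The comparisons with sgGal4 ask whether the cells that received sgRNAs against HS2 differed from the controls. Each sgHS2 group was set against the same 2 sgGal4 libraries, so the comparisons are not independent of one another. The summed histone TPM was 11193 and 14299.9 TPM in sgGal4, 16250.2 and 15411 in K, 15131 and 15937 in L, 17546 and 17519.7 in LK, and 14144 and 14333 in KL. The mean was 0.31 higher in K, 0.29 in L, 0.46 in LK and 0.16 in KL on the log2 scale, and the KL libraries lay beside sgGal4 replicate 2. In these bulk libraries, fewer cells in S phase and less histone mRNA per cell cannot be told apart. Without sgGal4 replicate 1, the library with the high mitochondrial share, these differences were 0.15, 0.12, 0.29 and -0.0062, and without sgGal4 replicate 2 they were 0.50, 0.47, 0.65 and 0.35. With mitochondrial genes left out of the total, the histone share was 2.86% and 3.12% in sgGal4 and 3.08% to 3.79% in the sgHS2 libraries.

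sgGal4 replicate 1 was the lowest of the 10 libraries in 30 of the 39 tested histone genes (76.9%) and in 22.4% of all tested genes. After rescaling without the mitochondrial genes it was the lowest in 18 of the 39. The plot of the tested genes by library shows this library at the low end of most rows.

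**Figure D2:**
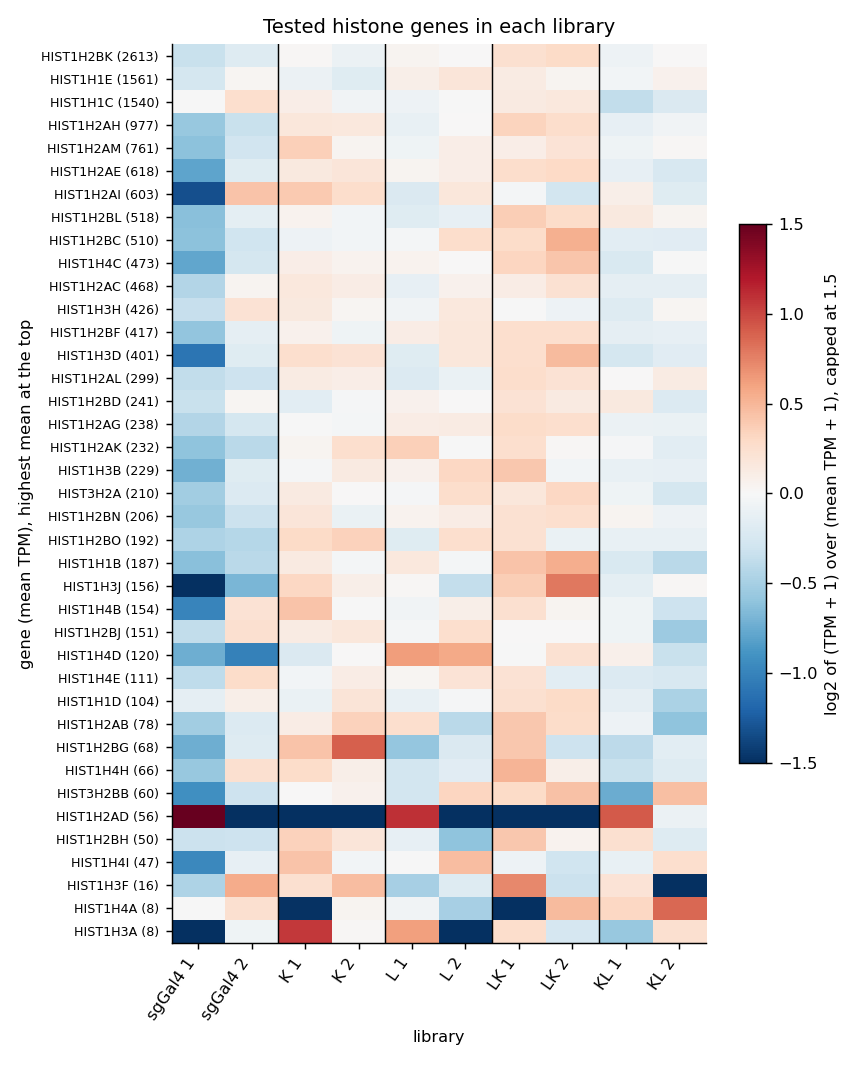
Log2 of TPM + 1 relative to the gene's mean over the 10 libraries for the 39 tested histone genes (rows, mean TPM in brackets), with libraries in columns and vertical lines between groups; colours are capped at 1.5. sgGal4 replicate 1 is blue in nearly every row, both LK libraries are mostly red, and HIST1H2AD, which is at 0 in several libraries, stands apart.

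In LK, some histone genes of each of the 5 types passed the test as higher than in sgGal4, with HIST1H1B the only H1 gene. 15 of the 39 tested members passed the test as higher (limma on log2 of TPM + 1, adjusted p under 0.05) and none as lower, where 1.18% of all 10127 tested genes were called higher and 0.829% lower. 26 members had both LK libraries above both sgGal4 libraries, as did 24.7% of all tested genes. The median log2 difference of the 39 members was 0.59, against 0.03 over all tested genes. This count rested on few libraries: it was 1 without LK replicate 1, 0 without LK replicate 2 and 6 without sgGal4 replicate 1, while without sgGal4 replicate 2 it was 19. Without a trend of the variance with the mean level, no member was called in any of the 6 comparisons.

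HIST1H3J, an H3 gene, was at 53.6 and 97.2 TPM in sgGal4, 195 and 166 in K, 159 and 122 in L, 201 and 270.3 in LK, and 141 and 159 in KL. Every sgHS2 library lay above both controls, and in LK it rose by 1.68 ± 0.24 (SE, adjusted p = 0.00426) on the log2 scale. The linker histone gene HIST1H1B was at 122 and 141 TPM in sgGal4, 206 and 184 in K, 210.0 and 183 in L, 253 and 274 in LK, and 160.3 and 141 in KL. It rose by 1.00 ± 0.15 (SE, adjusted p = 0.00556) in LK, and its LK libraries were the highest of all. The H4 gene HIST1H4C was at 275 and 394 TPM in sgGal4, 508 and 492 in K, 490.1 and 476 in L, 593 and 629 in LK, and 404 and 471 in KL. It rose by 0.89 ± 0.16 (SE, adjusted p = 0.0111) in LK, and again every sgHS2 library lay above both controls. The H2B gene HIST1H2BC, at 332 and 414 TPM in sgGal4, 483 and 494 in K, 500.2 and 612 in L, 614 and 736 in LK, and 457 and 453 in KL, rose by 0.86 ± 0.15 (SE, adjusted p = 0.00994) in LK.

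HIST1H2AH was at 657 and 777 TPM in sgGal4, 1102 and 1094 in K, 905 and 984 in L, 1236 and 1176 in LK, and 898 and 945 in KL. Its groups did not overlap with sgGal4, and it rose by 0.75 ± 0.11 (SE, adjusted p = 0.00555) in LK. The highest member, HIST1H2BK, rose by 0.53 ± 0.09 (SE, adjusted p = 0.0127). The 9 others called in LK were HIST1H2AE, HIST1H2AG, HIST1H2AL, HIST1H2AM, HIST1H2BF, HIST1H2BL, HIST1H2BN, HIST1H3D and HIST1H4D, with log2 differences of 0.59 to 1.00. By type, LK had 5 of 11 H2A genes, 5 of 11 H2B genes, 2 of 6 H3 genes, 2 of 7 H4 genes and 1 of 4 H1 genes called.

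In K, 4 of the 39 members were called higher and none lower, where 0.879% of tested genes were called higher and 0.741% lower. HIST1H3J rose by 1.30 ± 0.24 (SE, adjusted p = 0.0182), and HIST1H2BO by 0.76 ± 0.17 (SE, adjusted p = 0.0391). HIST1H2AM rose by 0.65 ± 0.14 (SE, adjusted p = 0.0367) and HIST1H2AH by 0.62 ± 0.11 (SE, adjusted p = 0.0164). Both K libraries lay above both controls in 26 members (25.2% of all tested genes), and the median log2 difference was 0.49, against 0.06 over all genes. The count of 4 was 0 without sgGal4 replicate 1 and 0 without either K library, and 12 without sgGal4 replicate 2.

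In L, the one call among the members was HIST1H4D, an H4 gene, which was at 72 and 59.2 TPM in sgGal4, 103 and 121 in K, 186 and 179 in L, 119 and 141 in LK, and 127 and 95.1 in KL. The L libraries were the highest of all 10, and the rise was 1.47 ± 0.19 (SE, adjusted p = 0.00167). This call was made with each single library of the comparison left out. Higher calls were 0.306% of all genes and lower calls 0.563%. Both L libraries lay above both controls in 20 members (20.8% of all tested genes), and the median was 0.40, against 0.00 over all genes. Without sgGal4 replicate 2, 12 members were called.

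In KL, none of the members was called by limma, although 13 of 39 had an unadjusted p under 0.05, as did 14.7% of all tested genes. Calls among all tested genes were 0.632% higher and 0.731% lower. 19 members had both KL libraries above both controls (24.3% of all tested genes), with a median of 0.31, against 0.05. The smallest adjusted p values were those of HIST1H3J, with a difference of 1.04 ± 0.24 (SE, adjusted p = 0.0535), HIST1H4D, with 0.74 ± 0.19 (SE, adjusted p = 0.0729), and HIST1H1C, whose 2 KL libraries were the lowest of all, with -0.42 ± 0.11 (SE, adjusted p = 0.0886). Without sgGal4 replicate 2 there were 7 calls, all higher, and without sgGal4 replicate 1 or without KL replicate 1 there was 1, lower (HIST1H1C and HIST1H3F, in that order).

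With all 8 sgHS2 libraries against sgGal4, 16 members were called higher and none lower, where 1.78% of tested genes were called higher and 1.48% lower. All 8 sgHS2 libraries lay above both controls in 15 members, as in 6.53% of all tested genes. The median log2 difference of the members was 0.43, against 0.03 over all genes. HIST1H3J rose by 1.24 ± 0.19 (SE, adjusted p = 0.00315) and HIST1H4D by 0.99 ± 0.15 (SE, adjusted p = 0.00255). The other 14 called were HIST1H1B, HIST1H2AE, HIST1H2AG, HIST1H2AH, HIST1H2AK, HIST1H2AL, HIST1H2AM, HIST1H2BC, HIST1H2BK, HIST1H2BL, HIST1H2BN, HIST1H2BO, HIST1H3D and HIST1H4C, with differences of 0.32 to 0.73. The difference of HIST1H2BK was -0.04 after quantile normalization. This count rested on single libraries of both sides: it was 1 without sgGal4 replicate 1 and 20 without sgGal4 replicate 2. It was 6 without LK replicate 2, 7 without LK replicate 1, 8 without L replicate 2, 9 without KL replicate 1, and 10 without K replicate 1, K replicate 2 or KL replicate 2.

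The dual-effector libraries LK and KL did not differ from K and L in any member by limma, with 1 of 39 at an unadjusted p under 0.05, where 7.45% of all tested genes were (HIST1H2BL, 0.28 ± 0.10 (SE, adjusted p = 0.565)). Calls over all tested genes were 0.0395% higher and 0.0494% lower, and the members' median was -0.03, against 0.01.

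**Figure D3:**
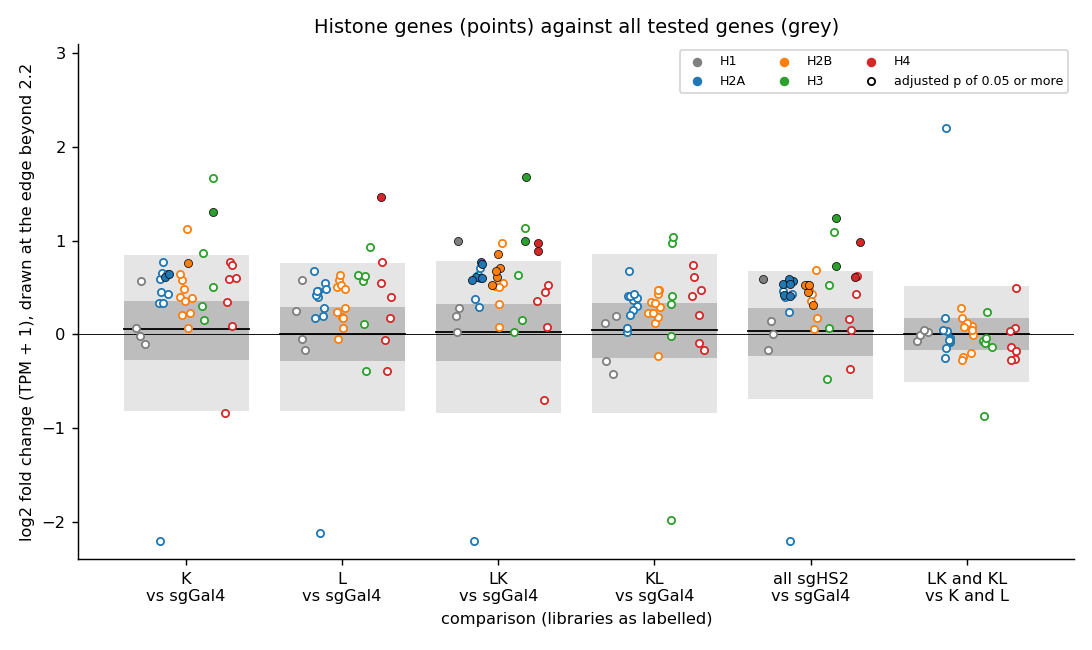
Log2 difference in TPM + 1 of the 39 tested histone genes in each comparison, coloured by histone type and filled where the adjusted p was under 0.05; grey bars span the 5th to 95th (light) and 25th to 75th (dark) percentiles of all 10127 tested genes and the black line is their median. Most points lie above the black line in the 5 comparisons with sgGal4, and not in LK and KL against K and L.

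The H1 genes were a smaller part of the histone sum in the sgHS2 libraries than in sgGal4, although HIST1H1B itself was higher. The summed TPM of the H1 genes was 3049 and 3681 TPM in sgGal4, 3418 and 3162 in K, 3420.5 and 3583 in L, 3766 and 3731 in LK, and 2957 and 3164 in KL. Both LK libraries lay above both controls, and the other 3 sgHS2 groups overlapped with them. The summed TPM of the core histone genes was 8144 and 10619 TPM in sgGal4, 12832 and 12249 in K, 11711 and 12355 in L, 13779.9 and 13788 in LK, and 11187 and 11168 in KL, and every sgHS2 library lay above both controls. The H1 share of the histone sum, a ratio within each library, was 27.2% and 25.7% in sgGal4, 21.0% and 20.5% in K, 22.6% and 22.5% in L, 21.5% and 21.3% in LK, and 20.9% and 22.1% in KL. Both controls thus lay above all 8 sgHS2 libraries, with means of 26.5% and 21.5%. The difference of -4.94 percentage points became -6.00 without HIST1H2BK and -5.17 without HIST1H2AD and HIST1H3D. HIST1H1C, with a log2 difference of -0.16 ± 0.09 (SE, adjusted p = 0.376) over all sgHS2 libraries, and HIST1H1E, with 0.14 ± 0.09 (SE, adjusted p = 0.473), carried most of the H1 sum, while HIST1H1B was the H1 gene that was called. HIST1H1C was called lower over all sgHS2 libraries under 2 other scalings, at -0.27 after rescaling without mitochondrial genes (adjusted p = 0.0421) and at -0.46 after quantile normalization (adjusted p = 0.00234). No test of H1 genes against core genes was made. HIST1H1D, at 95.1 and 111 TPM in sgGal4, 97.8 and 119.6 in K, 96.6 and 103 in L, 123 and 128 in LK, and 95.3 and 74.8 in KL, overlapped between sgGal4 and all sgHS2 libraries. By median, H1 genes differed by 0.07 over all sgHS2 libraries, H2A genes by 0.43, H2B genes by 0.45, H3 genes by 0.62 and H4 genes by 0.43.

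**Figure D4:**
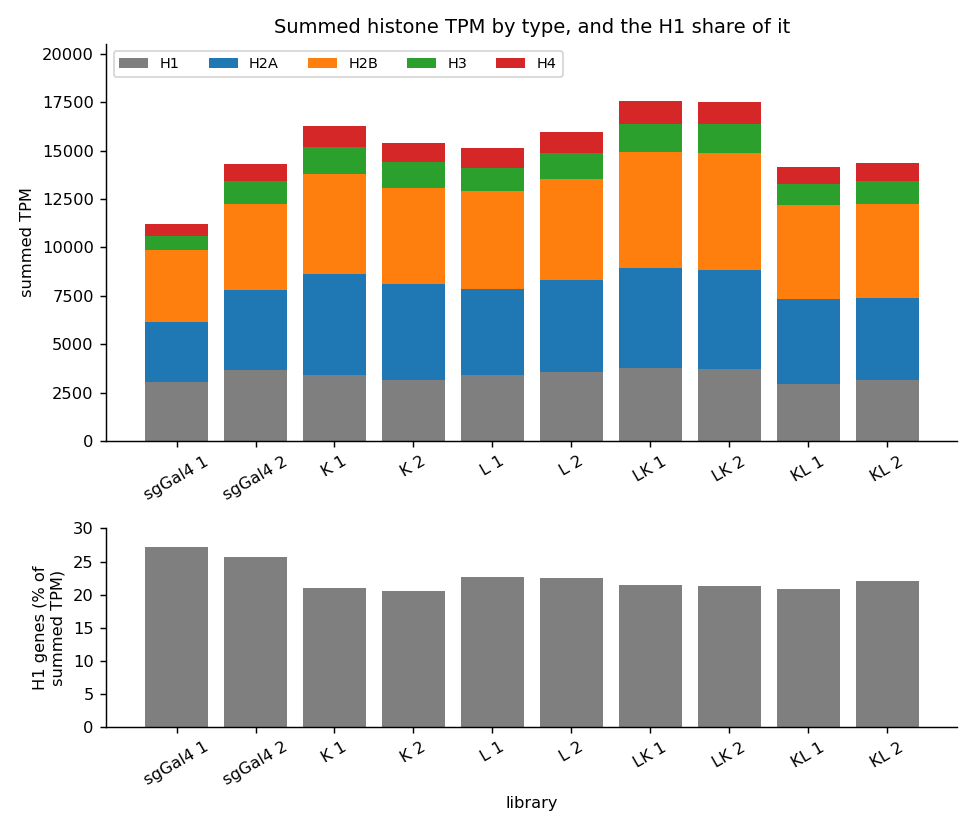
Upper bars, summed TPM of the 71 histone genes in each library, split by histone type; lower bars, the H1 genes as a percentage of that sum. The sums run from 11193 TPM in sgGal4 replicate 1 to 17546 TPM in LK replicate 1, and the H1 share is 25.7% to 27.2% in sgGal4 and 20.5% to 22.6% in the sgHS2 libraries.

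HIST1H2AD and HIST1H3D, neighbouring genes on the minus strand of chromosome 6, gave mirrored values. Their transcripts do not overlap in the GENCODE annotation searched here. Whether they overlap in the annotation used to estimate the TPM values was not tested. HIST1H2AD was at 255 and 7.88 TPM in sgGal4, 0 and 0 in K, 119.8 and 0 in L, 16.1 and 0 in LK, and 106 and 52.6 in KL. HIST1H3D was at 188 and 355 TPM in sgGal4, 477 and 468 in K, 353 and 450.0 in L, 479 and 557 in LK, and 333 and 356 in KL. Their sum was 442 and 363 TPM in sgGal4, 477 and 468 in K, 473 and 450.0 in L, 495 and 557 in LK, and 439.6 and 408 in KL, with a mean of 457 ± 51.7 TPM (SD, n = 10) over all libraries. The library with the most HIST1H2AD, sgGal4 replicate 1, had the least HIST1H3D, and the 4 libraries with HIST1H2AD at 0 had 449.99 to 557 TPM of HIST1H3D. HIST1H3D was called higher in LK and over all sgHS2 libraries, by 1.00 ± 0.22 (SE, adjusted p = 0.0358) and 0.73 ± 0.18 (SE, adjusted p = 0.0391), and with both genes summed as 1 that gene was not called in either comparison. How reads were split between them was not tested.

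**Figure D5:**
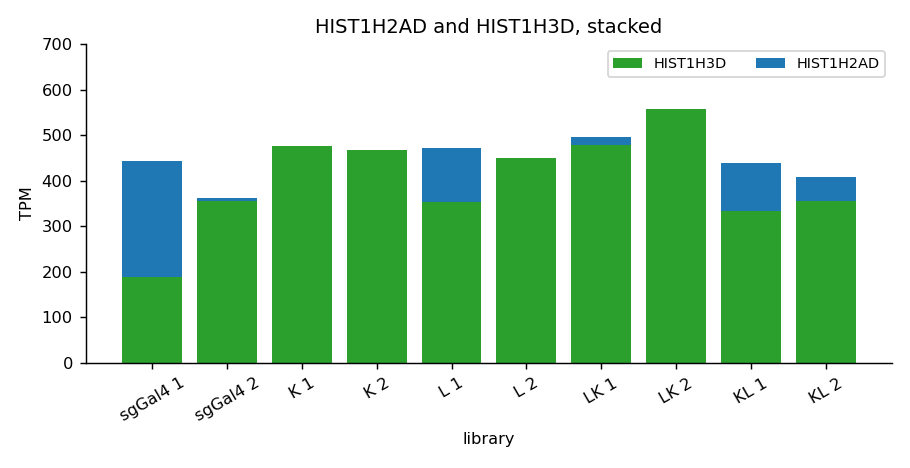
TPM of HIST1H3D (green) and HIST1H2AD (blue) stacked for each library. HIST1H2AD is 254.5 TPM in sgGal4 replicate 1 and 0 in K replicates 1 and 2, L replicate 2 and LK replicate 2, while the stacked height stays between 363 and 557 TPM.

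The variant histone genes, most of which give polyadenylated mRNA and are not tied to S phase, were far lower in sum. H2AFX is an exception, known to give a stem-loop mRNA as well, and CENPA is made late in the cycle. The 19 variant genes listed summed to 682 to 964 TPM per library, and the 71 replication-dependent genes to 15.2 to 19.5 times as much. Of the 19, 8 had a mean of at least 1 TPM and 8 were listed at 0 in every library. Repeated sequence was not searched in the variant genes, so a value of 0 is not taken as absence of the transcript. The ratio is therefore one of listed values. H2AFZ, the H2A.Z gene, was at 284 and 286 TPM in sgGal4, 316 and 249.8 in K, 286 and 275 in L, 301 and 288 in LK, and 283 and 255 in KL. H3F3B, an H3.3 gene, averaged 182 TPM, H2AFX 163, H2AFY 118 and H2AFV 61.0 TPM, and H1F0, the replacement linker histone gene, was at 0 in 9 of 10 libraries. None of the 8 tested variant genes was called by limma in any comparison. Over all sgHS2 libraries 5 of 8 had an unadjusted p under 0.05, as did 17.1% of all tested genes, of which 1.78% were called higher, a share at which 0 of 8 is near the background. In LK the medians of the log2 differences were 0.36 for the variant genes and 0.59 for the replication-dependent genes.

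Genes that make, process or use histone mRNA were looked at beside the histone genes. SLBP, which binds the stem-loop, was at 67.7 and 108 TPM in sgGal4, 103 and 77.9 in K, 109 and 91.8 in L, 95.2 and 122 in LK, and 88.1 and 122 in KL. NPAT, the activator of histone gene transcription, was at 9.38 and 14.4 TPM in sgGal4, 10.9 and 13.7 in K, 9.22 and 8.87 in L, 6.17 and 7.17 in LK, and 8.68 and 6.61 in KL. Of 22 tested transcription and processing genes none was called by limma in any of the 6 comparisons, with 8 at an unadjusted p under 0.05 over all sgHS2 libraries. Nor was any of 12 histone chaperone genes (2 at an unadjusted p under 0.05) or 18 S-phase genes such as PCNA and the MCM helicase genes (1). With 1.78% of all tested genes called higher, 1.48% called lower and 17.1% at an unadjusted p under 0.05, these counts of 0 are near the background for lists of this size. Over all sgHS2 libraries the median log2 differences were 0.06 for the transcription and processing genes, 0.11 for the chaperones and 0.11 for the S-phase genes, against 0.43 for the histone genes.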

How the data were processed

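RNA-seq was done on 10 K562 libraries. According to the submitters' processing notes and the methods, the authors aligned reads to hg19 with STAR 2.5.2b, keeping reads with a single location, and estimated TPM (the abundance of a gene's transcripts, corrected for length, as a share of a common total) with RSEM; the deposited TPM tables hold no counts, so depth and counting error are unknown. The members and gene lists were chosen with earlier results of these data known. The 10127 of 20535 genes that averaged 1 TPM or more were tested with limma 3.58.1 in R 4.3.3 on log2(TPM + 1), in 1 fit over all 5 groups with a trend of variance with mean level, and p-values were adjusted by Benjamini-Hochberg over all tested genes (threshold 0.05); differences on this scale understate changes of low genes. The count-based test in the methods was not repeated, since it needs counts. The fit was tested on simulated data: for K against sgGal4, simulated log2 differences of 1 were found in 38% and differences of 2 in 91% of the altered genes, with 10127 genes in the fit. Named were the 12 members of highest mean, called members, the 5 highest variant genes, SLBP, NPAT and label checks. Transcripts, stem-loops (searched within 150 bases of the stop codon), intervals and repeated windows came from GRCh37 and GENCODE 44 lifted to it, and promoters from RefSeq. Alternatives changed the pseudocount, filter, scaling, variance model, block and libraries.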

Additional observations from a re-analysis of the deposited data

Results flagged for a closer look

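HIST1H4A, a low H4 gene, lay above both sgGal4 libraries in both KL libraries and below both in both L libraries, with log2 differences of 0.47 and -0.39; it averaged 8.41 TPM, neither difference passed the test, and the difference between them was not tested. Groups of 2 libraries allow no test for a library that stands apart.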

How the results depend on the processing

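The count of called members depended on the settings. It was 4 in K, 1 in L, 15 in LK, 0 in KL and 16 over all sgHS2 libraries. Without a filter on low values it was 1, 2, 5, 1 and 7, with 1 lower call in each (HIST1H4K). With a filter at a mean of 10 TPM it was 10 in K, 2 in L and 2 in KL. With quantile normalization it was 2, 4, 9, 2 and 9, with 1 lower call in each but LK (HIST1H1C), and the difference of HIST1H2BK over all sgHS2 libraries turned to -0.041. Without a variance trend it was 0 in each, and with the compared groups alone 2 in K, of which 1 lower (HIST1H2AD), and 2 in LK. In KL, size factors gave 1 and rescaling without mitochondrial genes 2, of which 1 lower (HIST1H1C, also lower among the 14 over all sgHS2 libraries). Leaving out 1 library gave 0 to 12 in K, 1 to 12 in L, 0 to 19 in LK, 0 to 7 in KL and 1 to 20 over all sgHS2 libraries. Comparing LK and KL with K and L gave 0 throughout. The cause of these changes was not tested. The log2 difference of the summed TPM ranged from 0.15 to 0.50 in K, 0.12 to 0.47 in L, 0.29 to 0.65 in LK and -0.0062 to 0.35 in KL when 1 library was left out, and was 0.34 in LK after rescaling. Same-numbered replicates did not deviate together (correlations of -0.021 to 0.023), so the numbers do not pair the libraries; with a replicate block the counts were 5, 1, 11, 0 and 11, of which 1 lower in K (HIST1H2AD). Of 344 single calls repeated under another setting, 224 were kept, 119 were lost and 1 changed sign, and of 240 repeated without 1 library, 114 were kept and 126 lost. Summing HIST1H2AD and HIST1H3D, an alternative added after the data were seen, gave 14 in LK and 15 over all sgHS2 libraries, and the same holds for the alternatives to the H1 share. Windows of 50 and 100 bases gave 14 and 11 members with at least 50% repeated, against 12. Depth is unknown in TPM tables and limits what a value of 0 shows.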
